A study of Mus musculus with 6 samples.

Results

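Dendritic cells and Langerhans cells of the skin were followed through 10 genes: Cd207, Epcam, Zbtb46, Flt3, Itgax, Wdfy4, Clec9a, Clec10a, Cd209a and Siglech. They were chosen by gene symbol from the deposited count table, and all 10 of them were found among its 18482 genes. The RNA came from ear skin at postnatal day 21. The control group held 3 libraries of littermates labelled only as control. The lecko group held 3 libraries of mice in which Kdr, the gene of VEGFR2, was deleted in a lymphatic-specific way, and both groups had been given tamoxifen. The Cre driver and the floxed alleles are not named in the labels, nor is the tamoxifen schedule of these mice or what the control animals carried. Which animal or litter each library came from is not stated either, so p-values measure the spread between these 6 libraries.

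Dendritic cells are the antigen-presenting cells that take up material in the tissue and carry it through lymphatic vessels to the draining lymph node, where they activate T cells. Langerhans cells are their counterparts within the epidermis, held among keratinocytes by IL-34 and TGF-beta signals and marked by langerin, the product of Cd207. In the dermis, conventional dendritic cells divide into type 1, which depends on Irf8 and Batf3, and type 2, which depends on Irf4. Plasmacytoid dendritic cells, which depend on Tcf4, produce interferon and express Siglech. Migrating cells follow CCL21, made by lymphatic endothelium, through their receptor CCR7.

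Each library held between 17242921 and 17825135 estimated counts, and values are given as CPM, counts scaled to a common library size. Kdr was at 31.3 to 38.5 CPM in the controls and at 9.76 to 11.2 CPM in the lecko libraries. Summed counts of 4 Y-linked genes were 4272 and 4564 in controls 2 and 3, and between 4 and 21 in control 1 and the lecko libraries. Sex was therefore not balanced between the genotypes, and control 1 is the single control that matches the lecko libraries. Epidermal keratinocyte genes summed to 25940 to 29580 CPM in the controls and 26080 to 27530 CPM in the lecko libraries, as skin would give.

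No member passed the test over all genes, and Siglech, the plasmacytoid marker, showed the largest difference among the 10. All 10 members had a higher mean log2 CPM in lecko skin than in control skin, where 52% of the 14856 tested genes did. Their median log2 CPM difference was 0.30, against 0.01 over all tested genes. Cd207 and Epcam were almost level between the groups, with log2 fold changes of 0.08 for Cd207 and 0.01 for Epcam. The integrin Itgax was at 0.50, and the remaining members apart from Siglech lay between 0.14 and 0.36. By edgeR with Benjamini-Hochberg adjustment, 0 of the 10 were called, against 0.0202% of all tested genes (0.0135% higher and 0.00673% lower). DESeq2 and limma-voom also called 0 members, where DESeq2 called 0.131% of all genes higher and 0.0597% lower. The shares by limma-voom were 0.0135% and 0.00673%. At an unadjusted p under 0.05, 2 members were higher by edgeR (Siglech and Clec10a) and 0 lower, where 4.89% of all genes were higher and 3.68% lower. The groups did not overlap for 3 members, Siglech, Clec10a and Zbtb46, all higher in lecko skin, where 7.37% of all genes were higher without overlap. In whole skin, a difference in the number of cells of a type and one in the RNA per cell cannot be told apart.

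**Figure D1:**
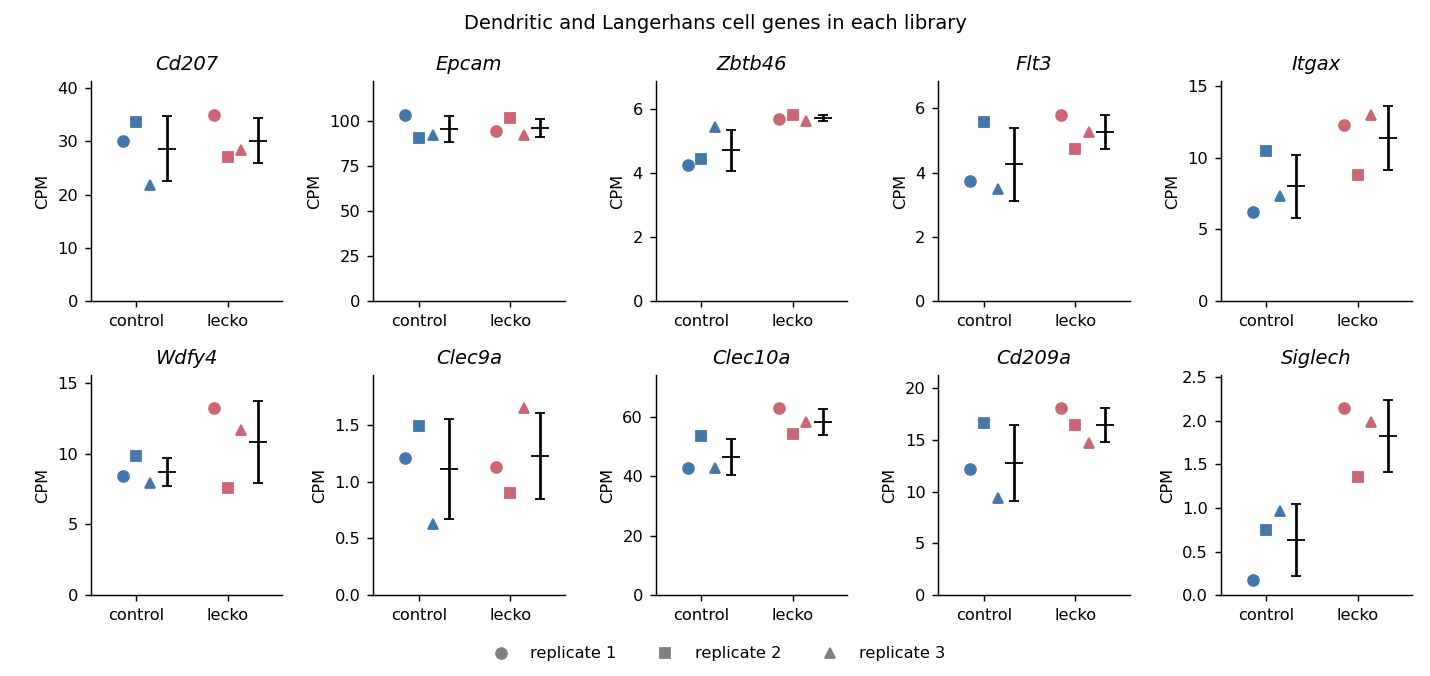
CPM of each member in the 3 control libraries (blue) and the 3 lecko libraries (red), with the replicate number as the marker shape and the group mean and SD in black. The groups overlap for Cd207 and Epcam and are separate for Zbtb46, Clec10a and Siglech, with a narrow gap for Clec10a.

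**Figure D2:**
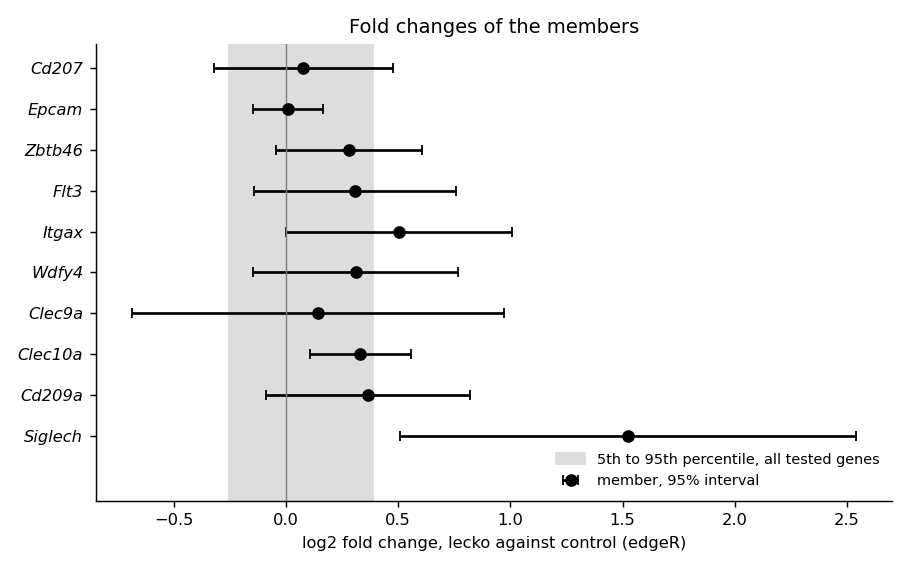
Log2 fold change of each member, lecko against control, with its 95% interval, over the 5th to 95th percentile of all tested genes in grey (-0.25 to 0.39). Siglech lies far to the right at 1.52, and the intervals of Siglech and Clec10a alone lie wholly above 0.

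Cd207 (NCBI gene 246278, chromosome 6, 83671207 to 83677857 in GRCm38.p6) encodes langerin, the lectin that forms the Birbeck granules of Langerhans cells. It was at 30.1, 33.7 and 21.9 CPM in controls 1 to 3 and at 35.0, 27.1 and 28.3 CPM in lecko libraries 1 to 3. Control 3 was the lowest library and lecko 1 the highest, and the ranges of the groups overlapped. The fold was 1.06 with a 95% interval of 0.799 to 1.39, an interval that spans both lower and higher levels. Without control 3 the log2 fold change was -0.08, without lecko 1 it was -0.05, and with all libraries it was 0.08. Whole skin does not show whether the Cd207 reads came from Langerhans cells alone.

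Epcam (NCBI gene 17075, chromosome 17, 87635979 to 87651127) encodes a cell adhesion molecule of Langerhans cells that hair follicle epithelium also makes. It was at 103.8, 91.1 and 92.6 CPM in the controls and at 94.5, 102.1 and 92.7 CPM in the lecko libraries. Means were 95.8 ± 6.98 CPM and 96.4 ± 4.99 CPM (SD, n = 3 in both groups), and the fold was 1.01 with a 95% interval of 0.904 to 1.12. Hair follicle and sebaceous epithelial genes, 12 of 12 tested, summed to 7836 to 9148 CPM in the controls and 8188 to 8908 CPM in the lecko libraries. Reads of Epcam from those cells and from Langerhans cells cannot be told apart here.

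Zbtb46 (NCBI gene 72147, chromosome 2, 181371009 to 181493262) encodes a transcription factor of the conventional dendritic lineage that endothelial cells also express. Its values were 4.26, 4.43 and 5.42 CPM in the controls and 5.70, 5.82 and 5.62 CPM in the lecko libraries. All 3 lecko libraries lay above the highest control, and the lecko values were close together (SD 0.103, against 0.627 in the controls). The log2 fold change was 0.28 (SE 0.14), with adjusted p = 0.622 by edgeR with Benjamini-Hochberg adjustment.

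Flt3 (NCBI gene 14255, chromosome 5, 147330741 to 147400489) encodes the receptor of the growth factor that drives dendritic cell development. It was at 3.75, 5.57 and 3.48 CPM in the controls and at 5.81, 4.75 and 5.28 CPM in the lecko libraries. Control 2 lay among the lecko values, and the other controls lay below all of them. The log2 fold change was 0.31 (SE 0.20). It was 0.18 without control 3 and 0.54 without control 2. Flt3l, the gene of its ligand, averaged 7.25 ± 0.437 CPM over the controls and 6.77 ± 0.405 CPM over the lecko libraries (SD, n = 3 in both groups), and its log2 fold change was -0.10.

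Itgax (NCBI gene 16411, chromosome 7, 128129526 to 128150657) encodes CD11c, an integrin of dendritic cells and of many macrophages. It was at 6.22, 10.5 and 7.36 CPM in the controls and at 12.3, 8.82 and 13.0 CPM in the lecko libraries. Lecko 2 lay below control 2, while lecko 1 and lecko 3 lay above every control. The fold was 1.42 (95% interval 1.00 to 2.01), with an unadjusted p of 0.050 and an adjusted p of 0.583 by edgeR. Its log2 fold change was 0.34 without control 1 and 0.74 without control 2.

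Clec9a and Wdfy4 both act in type 1 conventional dendritic cells. Whether the Wdfy4 reads came from that type alone cannot be told here. Clec9a (NCBI gene 232414, chromosome 6, 129408862 to 129424764), a receptor for the actin of dead cells, gave 21, 26 and 11 counts in the controls and 20, 16 and 29 counts in the lecko libraries. These counts overlapped throughout, and each is small: the 11 counts of control 3 have an exact Poisson interval of 5.49 to 19.7, which covers counting error only. The fold was 1.10 with a 95% interval of 0.621 to 1.96; the part of counting error and of the spread between libraries in it was not tested. Its log2 fold change was -0.14 without control 3 and -0.13 without lecko 3. Wdfy4 (NCBI gene 545030, chromosome 14, 32959547 to 33193855), which type 1 cells need to present captured antigen to CD8 T cells, was at 8.41, 9.83 and 7.93 CPM in the controls. In the lecko libraries it was at 13.2, 7.57 and 11.7 CPM. Lecko 2 was the lowest of all 6 libraries and lecko 1 the highest, and the log2 fold change of 0.31 (SE 0.20) was 0.13 without lecko 1 and 0.51 without lecko 2.

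Clec10a (NCBI gene 17312, chromosome 11, 70166623 to 70170836) encodes a lectin for galactose-type sugars on type 2 dendritic cells and dermal macrophages. It was at 42.9, 53.6 and 43.0 CPM in the controls and at 62.9, 54.1 and 58.4 CPM in the lecko libraries. Every lecko library lay above every control, with control 2 and lecko 2 almost level. The log2 fold change was 0.33 (SE 0.10), with an unadjusted p of 0.00902 and an adjusted p of 0.502 by edgeR. Reads may be divided between it and its close relative Mgl2, since both genes had estimated counts that were not whole in all 6 libraries. Mgl2 itself averaged 64.3 ± 15.6 CPM over the controls and 87.7 ± 10.7 CPM over the lecko libraries (SD, n = 3 in both groups). Summed, the pair was at 102.4, 135.3 and 94.6 CPM in the controls and at 160.1, 130.3 and 148.0 CPM in the lecko libraries, so that control 2 and lecko 2 then overlapped. Fitted as a single gene, a choice made after the values were seen, the pair had a log2 fold change of 0.40 and an unadjusted p of 0.0285 by edgeR.

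Cd209a (NCBI gene 170786, chromosome 8, 3743395 to 3748984) encodes a mouse relative of the mannose-binding lectin DC-SIGN, known from monocyte-derived and type 2 dendritic cells. It was at 12.2, 16.7 and 9.42 CPM in the controls and at 18.1, 16.4 and 14.8 CPM in the lecko libraries. Control 2 lay among the lecko libraries, and controls 1 and 3 below them. The log2 fold change was 0.36 (SE 0.20), with adjusted p = 0.634 by edgeR, and it was 0.19 without control 3 and 0.60 without control 2. Its neighbour in the family, Cd209e, averaged 4.57 ± 1.05 CPM over the controls and 8.48 ± 1.07 CPM over the lecko libraries (SD, n = 3 in both groups), and its log2 fold change was 0.89 with adjusted p = 0.373 by edgeR.

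Siglech (NCBI gene 233274, chromosome 7, 55768154 to 55779448) encodes a sialic acid-binding receptor of plasmacytoid dendritic cells, also found on some macrophages. It gave 3, 13 and 17 counts in controls 1 to 3 and 38, 24 and 35 counts in lecko libraries 1 to 3. In CPM these are 0.173, 0.747 and 0.970 against 2.14, 1.36 and 1.99. Every lecko library lay above every control, but the exact Poisson intervals of control 3 (9.90 to 27.2 counts) and lecko 2 (15.4 to 35.7 counts) overlapped. The fold was 2.88 with a 95% interval of 1.42 to 5.82. The unadjusted p was 0.00812 and the adjusted p 0.498 by edgeR, so this difference did not pass over all genes. Its log2 fold change stood at the 99.9th percentile of the tested genes. Control 1, with 3 counts, was the lowest library, and without it the log2 fold change was 1.08 in place of 1.52.

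The upstream stretches of Siglech and Cd209a are shown because Siglech differed most and because Cd209a alone among the members carried an ETS-IRF composite motif, the kind of site that Irf8 and Irf4 occupy with PU.1. Sequences are from RefSeq on GRCm38.p6, 5′ to 3′ on the strand of the gene, with motif matches in capitals.
Siglech, chr7:55767934-55768183, plus strand: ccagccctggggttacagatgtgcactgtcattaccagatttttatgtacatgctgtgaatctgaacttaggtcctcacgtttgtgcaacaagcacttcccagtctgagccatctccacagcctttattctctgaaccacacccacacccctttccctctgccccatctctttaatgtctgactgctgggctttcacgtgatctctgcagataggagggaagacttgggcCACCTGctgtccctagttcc
Cd209a, chr8:3748985-3749234, minus strand: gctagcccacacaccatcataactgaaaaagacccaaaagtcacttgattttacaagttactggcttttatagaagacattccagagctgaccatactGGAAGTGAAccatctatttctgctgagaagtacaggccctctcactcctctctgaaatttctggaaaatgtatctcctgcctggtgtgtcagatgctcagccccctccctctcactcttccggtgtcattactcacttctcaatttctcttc
Both stretches are the 250 bases before the start site used by the RefSeq table. For Siglech that start site lies inside the gene span given above, so the last bases printed, with the match, fall within that span. Motifs were searched on both strands in windows reaching 50 bases beyond the start site, which the table held for 9 of the 10 members (not Clec10a). The ETS-IRF composite GGAANNGAA was in the window of 1 member, Cd209a, and in 8.24% of 32851 windows of all genes. Its second match in Cd209a crosses the start site and is not capitalised. The E-box CAGGTG, a site of Tcf4 and of other factors of its class, was in the windows of Siglech, Epcam and Zbtb46 and in 20.2% of all windows. In Siglech it reads CACCTG, the letters of the opposite strand. The stretch of Zbtb46 before its start site (181424389 to 181424638, minus strand) lies wholly inside the span given for that gene, far from its outer end. That of Wdfy4 lies inside its gene span as well. A PU.1 site, GAGGAAGT, was in 0 member windows and 3.20% of all. The interferon element GAAANNGAA was in 1, that of Clec9a, and in 8.56% of all.

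Per kilobase of exon, the members spanned a wide range of levels in control skin. Epcam stood highest, at 44.2 to 50.4 CPM per kb. Cd207 (14.4 to 22.2) and Clec10a (17.2 to 21.4) came next and overlapped each other, and Cd209a (6.36 to 11.3) lay below both. Then came Itgax (1.44 to 2.42), Flt3 (0.951 to 1.52), Wdfy4 (0.781 to 0.967) and Zbtb46 (0.660 to 0.839), each overlapping the next in the order. Clec9a (0.191 to 0.454) and Siglech (0.0526 to 0.295) were lowest and overlapped. In lecko skin the order of means was the same except in 2 places: Clec10a stood above Cd207, and Siglech above Clec9a. Clec10a was at 21.6 to 25.2 CPM per kb there, against 17.8 to 23.0 for Cd207, and these ranges overlapped. Siglech was at 0.412 to 0.651 CPM per kb, against 0.275 to 0.50 for Clec9a, and these overlapped too.

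Other genes of dendritic cells were read from 8 lists, drawn up by role or, for the lectin relatives, by gene family. Not all of these genes are particular to dendritic cells. Without the members the lists hold 105 genes in the table. Of these, 94 were tested, and edgeR called 0 after adjustment. At an unadjusted p under 0.05, 17 were higher and 3 lower, where 4.89% of all genes were higher and 3.68% lower. The groups did not overlap for 19 that were higher and 2 that were lower, beside 7.37% and 7.23% of all genes. Their median log2 CPM difference was 0.18, and 70 of the 94 were above 0, beside 52% of all genes. Lectin relatives, listed by gene family, made up 6 of the 17 genes higher at an unadjusted p under 0.05. They had the highest median of the 8 lists (0.49). Counts in each list below stand beside the same shares of all genes.

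**Figure D3:**
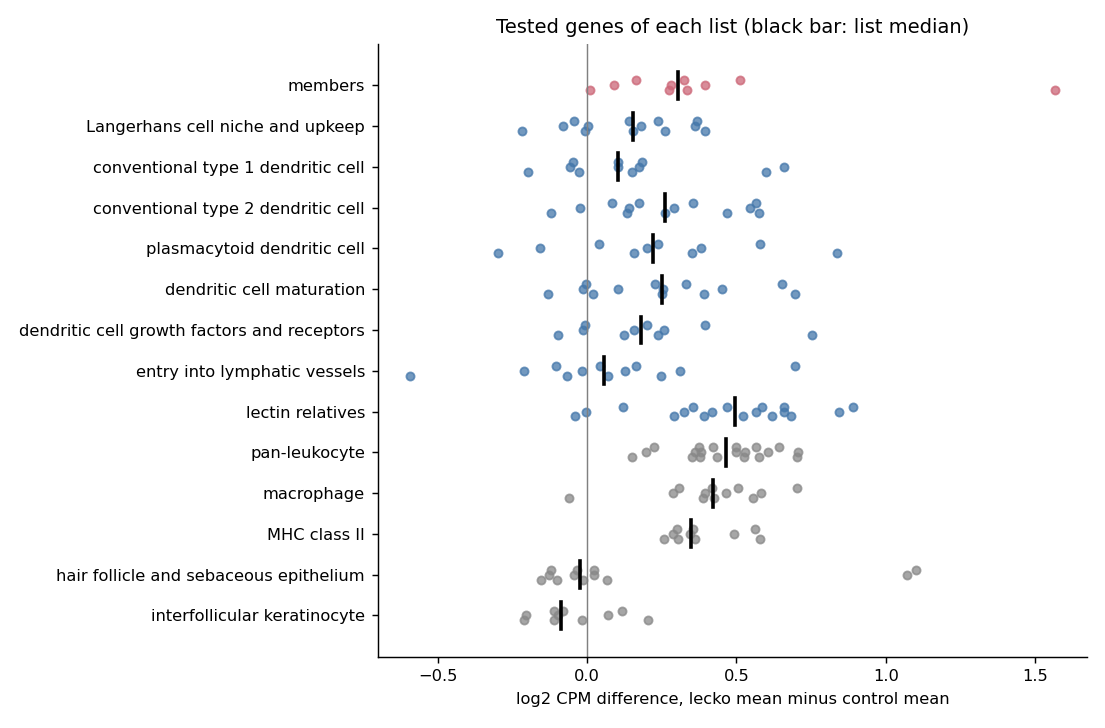
Log2 CPM difference, lecko mean minus control mean, for each tested gene, with list medians as black bars. Members are red, the lists of dendritic cell roles and of lectin relatives blue, and lists of other cell types grey. Members centre at 0.30, pan-leukocyte genes at 0.47 and keratinocyte genes at -0.09.

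Genes of type 1 conventional dendritic cells had a median log2 CPM difference of 0.10 over 11 tested genes, 7 of them above 0. Irf8, the transcription factor on which this lineage depends, was at 5.94, 5.92 and 5.42 CPM in the controls and at 9.14, 8.82 and 9.53 CPM in the lecko libraries. The groups were far apart relative to their spread, with a log2 fold change of 0.67 (SE 0.11), and the adjusted p of 0.315 by edgeR did not pass. Batf3, its partner in this lineage, averaged 0.841 ± 0.140 CPM over the controls and 0.810 ± 0.129 CPM over the lecko libraries (SD, n = 3 in both groups). Xcr1, the chemokine receptor that marks these cells, was at 0.922, 0.862 and 1.31 CPM in the controls and at 2.26, 1.02 and 1.76 CPM in the lecko libraries, where lecko 2 lay below control 3. Irf8 is also made by macrophages and B cells, so it does not single out this type.

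Genes of type 2 cells had a median of 0.26 over 13 tested genes, 11 of them above 0 and 5 higher at an unadjusted p under 0.05. Of all genes, 52% were above 0 and 4.89% higher at that level. Sirpa, a receptor that restrains phagocytosis and marks this type, averaged 87.5 ± 8.5 CPM over the controls and 106.7 ± 3.01 CPM over the lecko libraries (SD, n = 3 in both groups), log2 0.29 with adjusted p = 0.432 by edgeR. Clec7a, the beta-glucan receptor dectin-1, had a log2 fold change of 0.57, and the transcription factor Zeb2 one of 0.26. Macrophages express these 3 genes as well.

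The plasmacytoid list had a median of 0.22 over 10 tested genes, 8 of them above 0. Tlr9, a receptor for microbial DNA, was at 1.38, 2.18 and 1.6 CPM in the controls and at 3.33, 2.37 and 3.80 CPM in the lecko libraries, log2 0.88 with adjusted p = 0.486 by edgeR. Tcf4 averaged 145 ± 8.04 CPM over the controls and 161 ± 6.17 CPM over the lecko libraries (SD, n = 3 in both groups), a level carried by many cell types of skin. Cox6a2, which muscle also makes, had a log2 fold change of -0.30. Of the 15 genes listed, 5 had too few counts to be tested, and these are named here after their values were seen. Spib, a transcription factor of plasmacytoid cells and B cells, gave 2, 1 and 0 counts in the controls and 6, 7 and 7 in the lecko libraries. Klra17 gave 5, 5 and 2 against 3, 2 and 5 counts, and Pacsin1 gave 6, 11 and 8 against 12, 5 and 6 counts. Cd300c gave 0, 0 and 0 against 1, 0 and 0 counts, and Dntt gave 0, 0 and 0 against 5, 0 and 0 counts. Spib alone of the 5 thus separated the groups, at the edge of detection. The share of all untested genes that separated the groups was not counted.

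Langerhans cell upkeep genes had a median of 0.15 over 13 genes, 9 of them above 0. Il34, the keratinocyte cytokine on which these cells depend, averaged 58.3 ± 3.72 CPM over the controls and 58.1 ± 4.84 CPM over the lecko libraries (SD, n = 3 in both groups), while its receptor Csf1r, also that of macrophages, had a log2 fold change of 0.38 (SE 0.17). Id2, a transcription regulator needed for Langerhans cells, was at 64.8 ± 1.41 CPM against 77.7 ± 1.97 CPM (SD, n = 3 in both groups), log2 0.26 with adjusted p = 0.373 by edgeR. Tgfbr2, a TGF-beta receptor, was at 0.18, and Ly75, the uptake receptor DEC-205, at 0.36 on the same scale.

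Maturation genes had a median of 0.25 over 13 tested genes, with 10 above 0, beside 52% of all genes. Of the 13, 1 was higher at an unadjusted p under 0.05 (Cd274, the gene of PD-L1, log2 0.34), beside 4.89% of all genes. Ccr7 was at 0.922, 1.09 and 0.399 CPM in the controls and at 2.03, 1.13 and 0.907 CPM in the lecko libraries, so that lecko 3 lay below control 1. Cd83 had a log2 fold change of 0.73 (SE 0.42), a spread too wide to set it apart from 0. Growth factors and their receptors had a median of 0.18 over 10 tested genes, 7 of them above 0, with Tslp, an epithelial cytokine that acts on dendritic cells, at 1.03 ± 0.268 CPM against 1.79 ± 0.182 CPM (SD, n = 3 in both groups). Csf2ra, a chain of the GM-CSF receptor, had a log2 fold change of 0.26.

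Genes of entry into lymphatic vessels had a median of 0.06 over 12 genes, of which 2 were lower and 0 higher before adjustment (p under 0.05). At that level 3.68% of all genes were lower and 4.89% higher. Ccl21a was at 154.5, 148.0 and 128.4 CPM in the controls and at 93.5, 114.5 and 79.8 CPM in the lecko libraries. The groups did not overlap, with a log2 fold change of -0.58 and an adjusted p of 0.420 by edgeR. Near-identical copies of Ccl21a exist in the mouse genome, so its counts depend on how reads were divided. S1pr1, a receptor of vessels and lymphocytes for a lipid signal, had a log2 fold change of -0.21, and Cxcl12, a chemokine of stromal cells, one of 0.12.

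Lectin relatives of Clec9a, Clec10a and Cd209a had a median of 0.49 over 18 tested genes. Of these, 16 were above 0, beside 52% of all genes, and 6 were higher at an unadjusted p under 0.05, beside 4.89%. Clec4a2, an inhibitory receptor of myeloid cells, had a log2 fold change of 0.59.

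Pan-leukocyte, macrophage and MHC class II lists had medians above 0 in the same libraries, with 0 genes called by edgeR after adjustment. The 20 pan-leukocyte genes, all tested and all above 0, had a median log2 CPM difference of 0.47. They summed to 449 to 638 CPM in the controls and 641 to 826 CPM in the lecko libraries. At an unadjusted p under 0.05 by edgeR, 13 of the 20 were higher, beside 4.89% of all genes. Groups did not overlap for 10 of them, all higher, beside 7.37% of all genes. Ptprc, the gene of CD45, was at 35.8, 40.6 and 30.2 CPM against 62.4, 46.2 and 53.9 CPM. Macrophage genes had a median of 0.42 over 12 genes, with sums of 455 to 757 CPM and 667 to 881 CPM, which overlapped. Of the 12, 3 were higher at an unadjusted p under 0.05 and 0 were without overlap. Adgre1, the macrophage marker F4/80, averaged 33.1 ± 11.8 CPM over the controls and 47.5 ± 11 CPM over the lecko libraries (SD, n = 3 in both groups), and Fcgr1 and Cd68 had log2 fold changes of 0.74 and 0.44. MHC class II genes had a median of 0.35 over 10 genes, with sums of 1176 to 1675 CPM and 1647 to 1933 CPM, and Ciita and H2-DMb2 at 0.59 and 0.58. Of the 10, 5 were higher at an unadjusted p under 0.05 and 3 were without overlap, all higher. Lecko 1 held the highest sum of the pan-leukocyte, macrophage and MHC class II lists and control 3 the lowest. Among the members, lecko 1 was the highest library for 6, and control 1 and control 3 were each the lowest for 4. All 10 MHC class II genes and 11 of the 12 macrophage genes were above 0, and the macrophage gene Mertk had a log2 fold change of -0.06 (SE 0.26). The part of the leukocyte, macrophage and MHC class II genes in the members' differences was not tested.

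Counted against Ptprc in the same library, a comparison added after the values were seen, 9 of the 10 members were lower in lecko skin and Siglech was higher. This share is close to that of all genes, of which 98.1% were lower on this ratio, so nothing about the members follows from it. Cd207 gave 84.1, 83.0 and 72.4 counts per 100 of Ptprc in the controls and 56.1, 58.7 and 52.5 in the lecko libraries. The groups did not overlap for 5 members (Cd207, Epcam, Flt3, Clec10a and Wdfy4), all lower, beside 74.5% of all genes. For each the two-sided exact permutation p was 0.1, the smallest that 3 against 3 can give, and 0.2 after adjustment over the 10 ratios. Siglech gave 0.482, 1.84 and 3.21 per 100 of Ptprc in the controls and 3.43, 2.93 and 3.68 in the lecko libraries, which overlapped (exact permutation p = 0.2). Against the sum of the 20 pan-leukocyte genes, 8 members were lower, where 95.4% of all genes were, and Itgax joined Siglech above 0. The groups did not overlap for 1 of the 8, Cd207, beside 37.3% of all genes.

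Control 1 is the single control of the same sex as the lecko libraries, so the members were also compared with the sex difference held apart. With Y-linked expression as a covariate, Siglech had a log2 fold change of 3.35, Itgax 0.87, Flt3 0.49, Clec10a 0.45, Cd209a 0.43, Zbtb46 0.42 and Wdfy4 0.36, and Epcam -0.11. Cd207 and Clec9a were at 0.00 and 0.02. The smallest adjusted p among the members was 0.901 in that fit by edgeR. With control 1 as the sole control, a fit chosen after the values were seen that assumes this library varies like the lecko libraries, Siglech was at 3.34 and Itgax at 0.86. These values rest on 1 control library, which held 3 counts of Siglech.

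**Figure D4:**
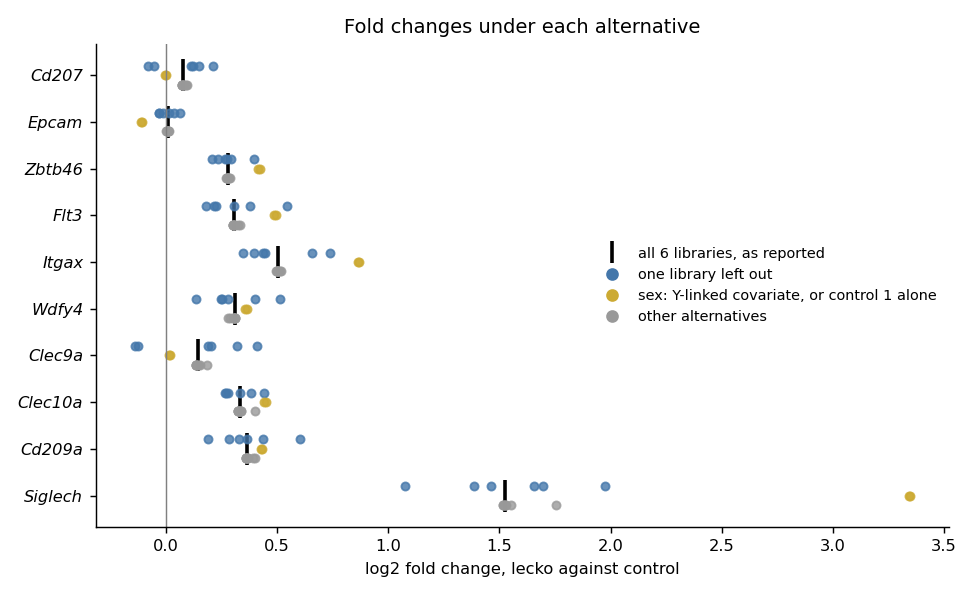
Log2 fold change of each member under every alternative: all 6 libraries (black bars), 1 library left out (blue), sex taken into account (yellow) and the others (grey). Cd207, Epcam and Clec9a fall on both sides of 0, while the other 7 members stay above it, and Siglech ranges from 1.08 to 3.35.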

How the data were processed

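Polyadenylated RNA of ear skin was sequenced in 6 libraries. The deposited table holds estimated counts per gene, not normalized, a unit read from its values (9.6 to 10.5% per library are not whole). RSEM 1.3.1, HISAT2 2.2.1, Bowtie2 2.4.5 and the build GRCm38.p6 appear in the submitters' processing notes, without roles. Annotation and strand setting are not stated there. RSEM-type estimates divide reads among similar genes, which bears on Clec10a and Mgl2.

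Counts were rounded, filtered with filterByExpr (minimum count 10, minimum total 15) and scaled by TMM. The test was edgeR's quasi-likelihood test (version 4.0.16, robust, by group) in R 4.3.3, adjusted by Benjamini-Hochberg over 14856 genes with a threshold of 0.05. Standard errors and 95% intervals were derived from its F statistic. Log2 CPM used a prior count of 2. All 10 members passed the filter. Alternatives were DESeq2 1.42.0, limma-voom (limma 3.58.1), other scalings and filters, a replicate block, a Y-linked covariate (threshold 10 CPM) and each library left out. Scripts were tested on simulated data. Replicate pairs differed by 8.43 to 17.46 times the sampling variance, and all 6 libraries were kept.

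The members and lists were chosen with earlier results of these data known. Text names all members, fixed lineage genes and the smallest-p genes of each list; exceptions are marked. Positions and start-site windows come from RefSeq (GRCm38.p6), and exon lengths from GENCODE M21 (GRCm38).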

Additional observations from a re-analysis of the deposited data

How the results depend on the processing

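Over 17 alternatives fitted to the whole table, 0 members were called in any, and the median log2 difference over the members stayed between 0.20 and 0.43, less than the spread between replicates (0.23) from 0.30. With single libraries omitted it was 0.20 without control 3 to 0.42 without control 2. Directions reversed for 3 members. Epcam was at -0.11 with the Y-linked covariate and at -0.11 with control 1 as the sole control, and at -0.034 to 0.064 with single libraries omitted. Cd207 was at -0.0057 with control 1 as the sole control and at -0.084 to 0.21 with single libraries omitted. Clec9a spanned -0.14 to 0.41 with single libraries omitted. The cause of these reversals was not tested. The other 7 members kept their direction in every alternative that gave them a value. The strict filter (1 CPM in every library) left out Siglech and Clec9a.

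Over all genes DESeq2 called 22 higher and 10 lower, where edgeR called 2 and 1. Leaving out single libraries gave 2 to 36 higher, the latter without control 2, and 1 to 5 lower, the latter without control 1. Without lecko 2 there were 4 higher and 2 lower. The members at an unadjusted p under 0.05 numbered 2 with all libraries and 2 to 5 with 1 left out, 5 without control 2, where 7.32% of all genes were higher at that level. The members without overlap between groups, all higher in lecko skin, numbered 3 with all libraries, where 7.37% of all genes were higher without overlap. They numbered 4 without control 1, 6 without control 2 and 5 without lecko 2. Groups separate more easily with 1 library fewer, and the share of all genes was not counted there. Nothing about the members follows from these larger numbers. With the replicate number as a block the fit called 2 genes higher, 1 lower and 0 members. Deviations of same-numbered libraries from their group means had correlations across genes of 0.34, -0.07 and 0.04. The first was the highest of any control and lecko pair, with control 3 and lecko 2 next at 0.23. Deviations from a mean of 3 libraries depend on each other, so these values cannot tell whether the numbers pair the libraries. Depth was lowest for Siglech and Clec9a, which had 33 and 58 counts over the 3 controls.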

Other observations

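Other leukocyte lists gave the following values, with 0 genes called by edgeR after adjustment in any of them. Ccr2, the receptor by which monocytes enter tissue, was at 16.6, 22.8 and 19.7 CPM in the controls and at 38.2, 30.5 and 41.8 CPM in the lecko libraries, without overlap and with adjusted p = 0.331 by edgeR. Genes of T and NK cells had a median log2 CPM difference of 0.38 over 7 tested genes, with Cd4 at 0.57 and Klrb1c at 0.87. Neutrophil genes had a median of 0.30 over 5, and their sum ran from 20.9 to 121.9 CPM in the controls and 26.0 to 130.7 CPM in the lecko libraries, with Csf3r at 0.87 and Mmp9 at 0.37. Mast cell genes had a median of 0.02 over 5, with Cpa3 at 0.14 and Tpsb2 at -0.08. B cell and plasma cell genes were near the limit of detection, with 1 of 7 tested (Cd79b, 0.13) and sums of 1.31 to 2.01 CPM in the controls and 1.53 to 1.86 CPM in the lecko libraries. Hair follicle and sebaceous genes had a median of -0.02 over 12, with 7 below 0, although the 2 with the smallest p, Krt27 and Krt71, had log2 fold changes of 0.95 and 1.00. Interfollicular keratinocyte genes had a median of -0.09 over 10, with 7 below 0, and Lor and Ivl at -0.20 and 0.12.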
